A study of Mus musculus with 59 samples.

Results

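Heat shock proteins and J-domain proteins form the main chaperone network of the cell, and 72 of the 21935 genes in the count table belong to it. Members were chosen by gene symbol alone. They comprise every gene of the table named as a heat shock protein of the Hspa, Hspb, Hspd, Hspe, Hsph or Hsp90a series, the heat shock factors Hsf1, Hsf2 and Hsf4, and every J-domain protein of the Dnaja, Dnajb and Dnajc series. Hspa5 and Dnajb9 were left out by the rule. No measured value entered the choice. Among the 72 members, Dnajb8 and Dnajc5g had no count in any library, and a further 7 were too low to be tested in any comparison.

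The 59 RNA-seq libraries came from C57BL/6 mice killed 4 hours after 1 intraperitoneal injection of vehicle or of IP118/PY115, in a series whose title concerns co-agonism at the PYY and GLP-1 receptors in obese-diabetic mice. The sample labels give no diet, age or sex. Laser capture took 4 mm2 of tissue per animal from 10 µm frozen sections at each of 3 sites. Those in the hypothalamus were the paraventricular nucleus (PVN), which holds oxytocin and vasopressin neurons, and the arcuate nucleus (ARC), which holds the Agrp and Pomc feeding neurons. The brainstem site was the solitary tract nucleus (NTS), which receives vagal input. PVN and NTS had 10 libraries per treatment, and ARC had 9 with vehicle and 10 with IP118/PY115. All 3 regions were taken from each animal, but the labels do not tie libraries to animals, so p-values between regions treat the libraries as independent, and every p-value measures the spread between libraries.

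HSP70 proteins bind exposed hydrophobic stretches of unfolded proteins in a cycle driven by ATP. J-domain proteins deliver clients and stimulate the HSP70 ATPase, HSP110 proteins exchange the nucleotide, and HSP90 proteins take over partly folded clients such as steroid receptors and kinases. Small heat shock proteins hold unfolding proteins without using ATP. The transcription factor HSF1 raises part of the network under stress by binding heat shock elements, inverted repeats of GAA, whereas constitutive members such as Hspa8 keep synaptic vesicle recycling and protein folding running in unstressed neurons.

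Promoter sequences are shown for the members in which the letters of a heat shock element, the sequence that HSF1 binds, were found. RefSeq promoter windows (GRCm38.p6, 250 bases before to 50 after a start) were matched for 56 of the 72 members. The element was searched on both strands as 3 alternating repeats of GAA and its complement with any 2 bases between them, that is GAA, TTC, GAA or TTC, GAA, TTC. These occurred in 0.603% of all 32851 windows and in the windows of 0.662% of all 27025 genes. Among members they occurred in 4 of 56 (7.14%): Dnajb6, Hspd1, Hspe1 and Hsph1. The window of Dnajb1 held none, and Hsp90aa1 had no window. A match is a description of the letters only. In the stretches below the capitals mark the matched element, and where the 2 patterns overlap both are in capitals.
Hspe1 (chr1:55088053-55088082, + strand): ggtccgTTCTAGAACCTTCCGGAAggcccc
Dnajb6 (chr5:29735844-29735872, + strand): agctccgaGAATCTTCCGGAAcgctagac
Hsph1 (chr5:149636281-149636308, - strand): gctgcagaTTCTGGAAAGTTCtcctcag
Hspd1 and Hspe1, which encode the mitochondrial HSP60 chaperonin and its HSP10 lid, are transcribed in opposite directions from RefSeq starts with 215 bases between them, and the stretch printed for Hspe1 is the element that both windows hold. The printed stretch runs from 95 to 66 bases before the Hspe1 start, inside an exon of a longer annotated Hspd1 transcript. The Dnajb6 stretch lies 54 to 26 bases before a start, inside exons of another Dnajb6 transcript and of the opposite-strand gene Gm5129. The Hsph1 stretch runs from 7 to 34 bases after a start, with the element at 15 to 27.

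The inducible HSP70 genes Hspa1a and Hspa1b are neighbouring copies on chromosome 17, and their promoters are shown because they are nearly identical. The windows differed at 4 of 300 bases, and the stretch from 230 to 91 bases before the start holds the positions in capitals, at which the copies differ.
Hspa1a (chr17:34972247-34972386, - strand): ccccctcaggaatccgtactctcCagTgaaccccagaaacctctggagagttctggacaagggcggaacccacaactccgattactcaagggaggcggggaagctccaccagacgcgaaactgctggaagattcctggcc
Hspa1b (chr17:34959329-34959468, - strand): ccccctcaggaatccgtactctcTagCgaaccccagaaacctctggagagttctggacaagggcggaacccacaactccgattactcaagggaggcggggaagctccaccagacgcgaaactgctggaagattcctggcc
Of all 50-base windows in the Hspa1a transcript, 58.8% also occurred in Hspa1b, and 62.3% of the Hspa1b windows occurred in Hspa1a. The split of reads between these copies is therefore uncertain. Neither window held either spaced pattern, which says only that those letters are not in these 300 bases.

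Library totals ranged from 3964093 to 28510118 counts with a median of 10717483. Mean log10 totals of treated and vehicle libraries differed by 0.12 in PVN (2-sided permutation test, p = 0.11), by 0.07 in ARC (exact permutation test, p = 0.184) and by 0.08 in NTS (permutation test, p = 0.353). Summed markers of each region had a vehicle median of 14580 CPM (counts scaled to equal library size by the factors described under processing) in PVN for the 5 PVN genes, 2493 CPM in ARC for the 4 ARC genes in the table and 1106 CPM in NTS for the 5 NTS genes, and no vehicle median of another region exceeded 33.3 CPM. The libraries numbered 1 stood apart on Fosb, an immediate early gene of neuronal activity. In NTS the library labelled vehicle 1 had 39.67 CPM against 0.141 to 2.70 in the other vehicle libraries, and the library labelled treated 1 had 0.857 CPM against 18.9 to 48.8 in the other treated ones. The same held in PVN, at 21.45 CPM against 1.47 to 16.5 and at 3.34 CPM against 10.96 to 48.4. In ARC the library labelled vehicle 1 lay within its group (4.27 CPM), and the library labelled treated 1, at 2.07 CPM, lay below the others of its group, at 3.07 to 12.8. Zbtb16, a transcription factor gene that earlier results of these data had singled out, was higher in vehicle 1 than in the other vehicle libraries of all 3 regions, at 45.3 against 11.5 to 36.1 CPM in PVN, 49.2 against 9.48 to 20.3 CPM in ARC and 25.6 against 4.94 to 13.2 CPM in NTS. Treated 1 was below the other treated libraries for Zbtb16 in PVN and NTS and within their range in ARC. In NTS each library numbered 1 had a Fosb value within the range of the other libraries of the opposite label. Whether the labels of these libraries were exchanged cannot be told from the sources used here. The labels were kept. Dnajb5 and the counts of members called with treatment and between regions are given with and without these libraries. Other differences and the correlation tests include them. PVN vehicle library 10 also stood apart, being the highest of its group in 18 and the lowest in 17 of the 63 members tested. Of the vehicle libraries, 3 of PVN and 2 of ARC carry numbers from 5553 to 5557, apart from the runs of numbers of the other libraries, and no treated library does.

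Chaperone transcripts made up about 1 in 100 counts in all 6 groups. The members together took 0.993 ± 0.0268% (SD, n = 10) of the counts in vehicle PVN, 1.033 ± 0.0442% (n = 9) in vehicle ARC and 0.890 ± 0.0439% (n = 10) in vehicle NTS, and treated means were 0.996%, 1.02% and 0.887%. Per kilobase of exon, the constitutive cytosolic chaperones led. Hsp90ab1, the constitutive HSP90, was first in every region at 713, 776 and 581 CPM per kb in PVN, ARC and NTS. Hspa8, the constitutive HSP70, was second at 292, 281 and 237 CPM per kb, and Hsp90aa1, the inducible HSP90, came next at 199, 203 and 183 CPM per kb. Among the next 9 in PVN were Hspa9 (mitochondrial HSP70), the J proteins Dnaja2, Dnajc6 (auxilin, which starts clathrin uncoating) and Dnajc5 (cysteine string protein of synaptic vesicles), and Hspd1. At the other end, the stress-inducible Hspa1a stood at 2.82, 2.99 and 2.96 CPM per kb and Hspa1b at 1.40, 1.07 and 1.10 CPM per kb, ranks 59 and 61 of the 72 in PVN. How reads that match both copies were counted is not given, so these levels may be too low and the ranks are uncertain. The levels are of whole captured tissue, in which fewer cells of a type and less RNA per cell cannot be told apart.

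IP118/PY115 changed no member past the threshold in any region. Of 62 members tested in each region, 0 were called in PVN, in ARC or in NTS at an adjusted p under 0.05 (edgeR quasi-likelihood test, Benjamini-Hochberg over all genes tested). Over all genes the share called was 0.656% for PVN and 0% for both ARC and NTS. At an unadjusted p under 0.05 there were 3, 1 and 2 members, or 4.84%, 1.61% and 3.23%, beside 9.34%, 7.20% and 5.80% of all genes. DESeq2 called 0 members in the hypothalamic regions and 1, Dnajb5, in the NTS, beside 1.56%, 0.438% and 0.460% of all genes. The median log2 difference of the members was 0.00, -0.01 and 0.02, and that of all genes was -0.02, 0.00 and 0.00. The 95% interval of the difference lay within 0.5 log2 units of 0 for 58 of 62 members in PVN and for 57 of 62 in both other regions. The exceptions were Dnajb5, Hspa1b, Hspb1 and Hspb11 in PVN, Dnajb13, Dnajb3, Dnajc25, Hspa1b and Hspb1 in ARC, and Dnajb13, Dnajb3, Dnajb5, Hspa1b and Hspb1 in NTS. Treated and vehicle libraries overlapped for every member tested in each region, but the share of all genes that overlap was not computed. Markers of other cell types were not called with treatment either. All 6 oligodendrocyte markers had positive differences in ARC (from 0.26 for Cnp to 1.37 for Mobp) and NTS (median 0.24) and 1 of 6 in PVN, and all 5 red blood cell markers had positive differences in PVN, ARC and NTS (medians 0.41, 0.27 and 0.24). Over all genes 42.4%, 50.1% and 50.2% of the differences were positive in PVN, ARC and NTS. Summed oligodendrocyte markers in ARC ran from 468 to 1238 CPM in vehicle and from 479 to 5539 CPM in treated libraries. The part of these cells in the members' differences was not tested.

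**Figure D1:**
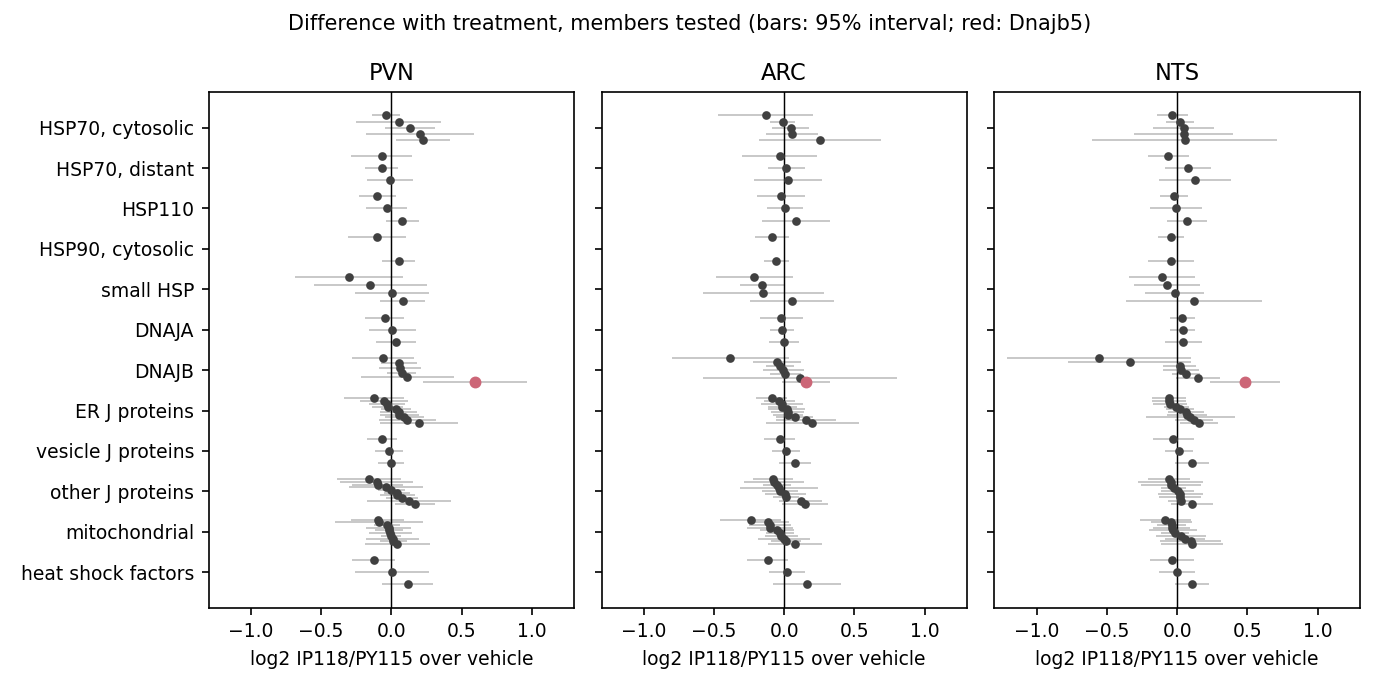
Log2 difference between IP118/PY115 and vehicle (x axis) for each of the 62 members tested in PVN, ARC and NTS, grouped by role (y axis), with 95% intervals as bars and Dnajb5 in red. Most points lie close to 0, and Dnajb5 stands to the right in PVN (0.60) and NTS (0.48).

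Dnajb5 (ENSMUSG00000036052, GRCm38 chr4:42949814-42959425, + strand), a cytosolic J protein related to Dnajb1, had the smallest p of all members in PVN and NTS. In PVN it ranged from 61.3 to 128 CPM in vehicle libraries, with a median of 75.5, and from 53.2 to 180 CPM in treated libraries, with a median of 132. Both groups' extremes came from the libraries numbered 1: the library labelled vehicle 1 was the highest of its group, and the library labelled treated 1 was the lowest of its own. Means were 82.5 ± 21.97 CPM (SD, n = 10) and 126 ± 33.97 CPM (n = 10), a log2 difference of 0.60 ± 0.18 (SE; edgeR adjusted p = 0.164), and 9 of 10 treated libraries exceeded the vehicle median. In NTS vehicle libraries ranged from 42.6 to 85.1 CPM around a median of 55.5, and treated libraries from 49.1 to 109 CPM around a median of 80.7. The same 2 library numbers again gave the highest vehicle and the lowest treated value. The NTS means were 58.5 ± 12.4 and 81.7 ± 15.6 CPM (SD, n = 10 each), a log2 difference of 0.48 ± 0.12 (SE; edgeR adjusted p = 0.169), with 9 of 10 treated libraries above the vehicle median.

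In ARC Dnajb5 ranged from 47.1 to 71.0 CPM in vehicle libraries (median 54.4) and from 47.02 to 78.4 CPM in treated ones (median 63.1). These groups overlapped over most of their range, with 8 of 10 treated libraries above the vehicle median. The log2 difference was 0.16 ± 0.08 (SE; edgeR adjusted p = 0.726). The effect in PVN exceeded that in ARC by 0.44 ± 0.20 log2 units (unadjusted p = 0.0317, adjusted p = 0.741 in the edgeR fit), so a difference between regions was not established.

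Without the libraries numbered 1, an alternative added after their values had been seen and therefore no independent support, Dnajb5 was called in PVN and NTS. Its means in PVN were then 77.5 ± 16.04 and 134 ± 23.9 CPM (SD, n = 9 each), a log2 difference of 0.78 ± 0.12 (SE; edgeR adjusted p = 0.000289). In NTS the difference was 0.62 ± 0.09 (edgeR adjusted p = 0.000114), and the groups did not overlap, at 42.6 to 70.8 CPM against 73.3 to 109 CPM. In ARC it was 0.19 ± 0.09 (edgeR adjusted p = 0.507). Over all genes the share called without these libraries was 3.22% (PVN), 1.14% (ARC) and 1.18% (NTS), and Dnajb5 was the only member called in PVN or NTS. Leaving out the library labelled vehicle 1 alone gave adjusted p = 0.0344 in PVN and 0.0120 in NTS, and leaving out treated 1 alone gave 0.00841 and 0.0107 (edgeR). Over its alternatives the PVN difference ran from 0.48 to 0.78 with adjusted p from 0.000289 to 0.451, the highest without the vehicle libraries numbered 5553 to 5557, and the NTS difference from 0.43 to 0.62 with adjusted p from 0.000114 to 0.343.

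**Figure D2:**
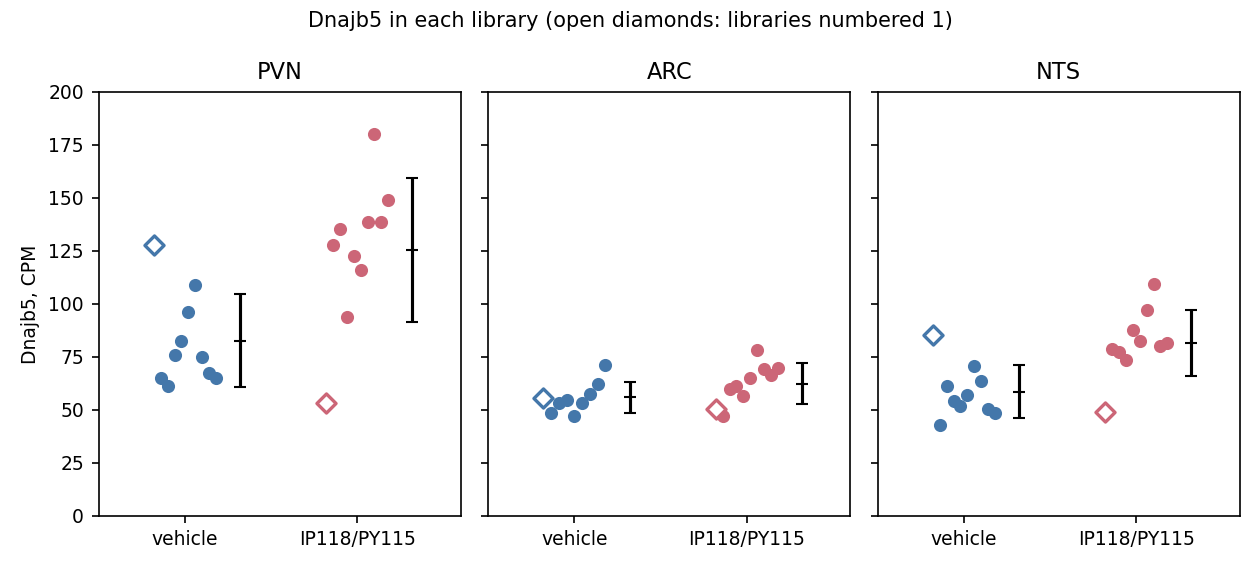
Dnajb5 in CPM (y axis) in every library by treatment and region, with the mean and SD of each group as black bars and the libraries numbered 1 as open diamonds. In PVN and NTS the open vehicle diamond (128 and 85.1 CPM) tops its group and the open treated diamond (53.2 and 49.1 CPM) is the lowest of its own.

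None of the genes most used as indicators of a heat shock response was called with treatment, and their log2 differences lay between -0.30 and 0.26. Hspa1a, the inducible HSP70, had means of 8.37 ± 1.98 CPM (vehicle) and 8.72 ± 1.69 CPM (treated) in PVN (SD, n = 10 each), and its log2 differences were 0.05, -0.13 and 0.05 in PVN, ARC and NTS. Its copy Hspa1b gave 0.21, 0.26 and 0.05 with standard errors of 0.19, 0.21 and 0.32. Dnajb1, the J protein that works with inducible HSP70, gave -0.06, -0.05 and 0.15 (edgeR adjusted p = 0.924, 0.931 and 0.893). In NTS all 10 treated libraries exceeded the vehicle median of Dnajb1, at means of 52.5 ± 8.04 and 58.5 ± 5.23 CPM, yet the groups overlapped. Hsph1, an HSP110 exchange factor, gave -0.03, -0.02 and -0.01, and Hsp90aa1 gave -0.10, -0.09 and -0.05. The PVN value of Hsp90aa1 was 0.01 without PVN vehicle library 10, and that of Dnajb1 was 0.06 without PVN vehicle library 8. Hspa8 gave -0.04, -0.01 and 0.02 with standard errors of 0.05, 0.04 and 0.05. Hspb1 (HSP27), at 2.67 to 4.10 CPM in all groups, gave -0.30, -0.15 and 0.12. Hsf1 itself gave 0.12, 0.02 and 0.11, and Hsf2 gave -0.13, -0.12 and -0.04.

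Apart from Dnajb5, 6 members had an unadjusted p under 0.05 in a treatment comparison or in a difference between treatment effects, and none passed the adjustment. Hspa2, an HSP70 best known from the testis, was at 21.7 ± 3.57 and 25.6 ± 3.20 CPM in vehicle and treated PVN, a log2 difference of 0.22 ± 0.09 (edgeR adjusted p = 0.392). Dnajc21, a ribosome maturation factor, gave 0.17 ± 0.07 in PVN (edgeR adjusted p = 0.385). Dnajc1, a J protein of the ER membrane, gave 0.15 ± 0.06 in NTS (edgeR adjusted p = 0.699). Dnajc4, placed among the mitochondrial J proteins, gave -0.24 ± 0.10 in ARC (edgeR adjusted p = 0.619) and 0.10 ± 0.11 in NTS. Dnajc13 (RME-8, an endosomal J protein) gave -0.07 in PVN and 0.11 in NTS, a difference of effects of -0.18 ± 0.07 (edgeR adjusted p = 0.968). Dnajc12 gave -0.10 in PVN and 0.14 in ARC, a difference of -0.24 ± 0.12 (edgeR adjusted p = 0.796). For differences in the treatment effect, 0 of 63 members were called for PVN against ARC, PVN against NTS or ARC against NTS by edgeR and by DESeq2, beside 0.0487%, 0.0904% and 0% of all genes with edgeR and 0.104%, 0.139% and 0.0209% with DESeq2. At an unadjusted p under 0.05 there were 2, 1 and 1 members, beside 6.21%, 4.28% and 3.76% of all genes.

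Genes that work with the network were counted from lists of co-chaperones, chaperonins, mitochondrial quality control, ER chaperones and other HSF1 targets. Over all genes the share called with treatment was 0.656% in PVN and 0% in ARC and NTS, so in ARC and NTS no list could hold a call. Of 24 HSP70 and HSP90 co-chaperones, 1 was called with treatment, in PVN. It was Fkbp5, an HSP90-bound immunophilin that glucocorticoids induce, with means of 60.4 ± 16.2 CPM (vehicle) and 95.4 ± 21.03 CPM (treated) in PVN (log2 difference 0.65 ± 0.15, edgeR adjusted p = 0.0450). Its ARC and NTS differences were 0.72 ± 0.22 and 0.58 ± 0.15 (edgeR adjusted p = 0.329 and 0.203). None of the 13 tested subunits of the CCT chaperonin and prefoldin, the 11 mitochondrial quality control genes, the 8 ER chaperones left out by the symbol rule or the 15 other HSF1 targets (14 tested in PVN and ARC) was called in any region. All 8 of those ER chaperones had a positive difference in PVN, with a median of 0.08, against 5 in ARC and 3 in NTS. Over all genes 42.4%, 50.1% and 50.2% of the differences were positive in the same order.

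More members were called between regions than between treatments. In vehicle libraries, 24 of 63 members (38.1%) were called between PVN and ARC in either direction, beside 6610 of all 14379 genes. Of these members 14 were higher in PVN and 10 lower, where 24.8% of all genes were called higher and 21.1% lower. Between PVN and NTS 38 members (60.3%) were called, beside 8064 of 14379 genes. There 23 were higher in PVN and 15 lower, where 28.3% of all genes were called higher and 27.8% lower. Between ARC and NTS 36 members (57.1%) were called, beside 8874 of 14379 genes. There 22 were higher in ARC and 14 lower, where 30.2% of all genes were called higher and 31.5% lower. Median absolute log2 differences were 0.14, 0.24 and 0.20 for members and 0.23, 0.28 and 0.32 for all genes in the same order, so the members' median was the smaller in each pair. The split by direction between PVN and ARC depended on scaling: with library totals alone it was 12 higher and 19 lower, against 20 and 17 between PVN and NTS and 25 and 13 between ARC and NTS. Library totals alone called 6855, 8008 and 8945 of 14379 genes for these pairs. The median log2 difference of all genes between PVN and ARC was then -0.06, against 0.01 in the main fit. Without the libraries numbered 1 the counts were 25, 38 and 34, beside 43.7%, 54.6% and 60.3% of all genes. Without PVN vehicle library 10 the counts that involve PVN were 29 and 39, for which the share of all genes is not given here. Markers of other cell types also differed between regions. Summed oligodendrocyte markers had vehicle medians of 929, 754 and 5066 CPM in PVN, ARC and NTS, astrocyte markers 1167, 774 and 2187 CPM and endothelial markers 360, 90.3 and 174 CPM, with all markers of these 3 lists above 1 CPM on average in each region, and their part in the differences was not tested.

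**Figure D3:**
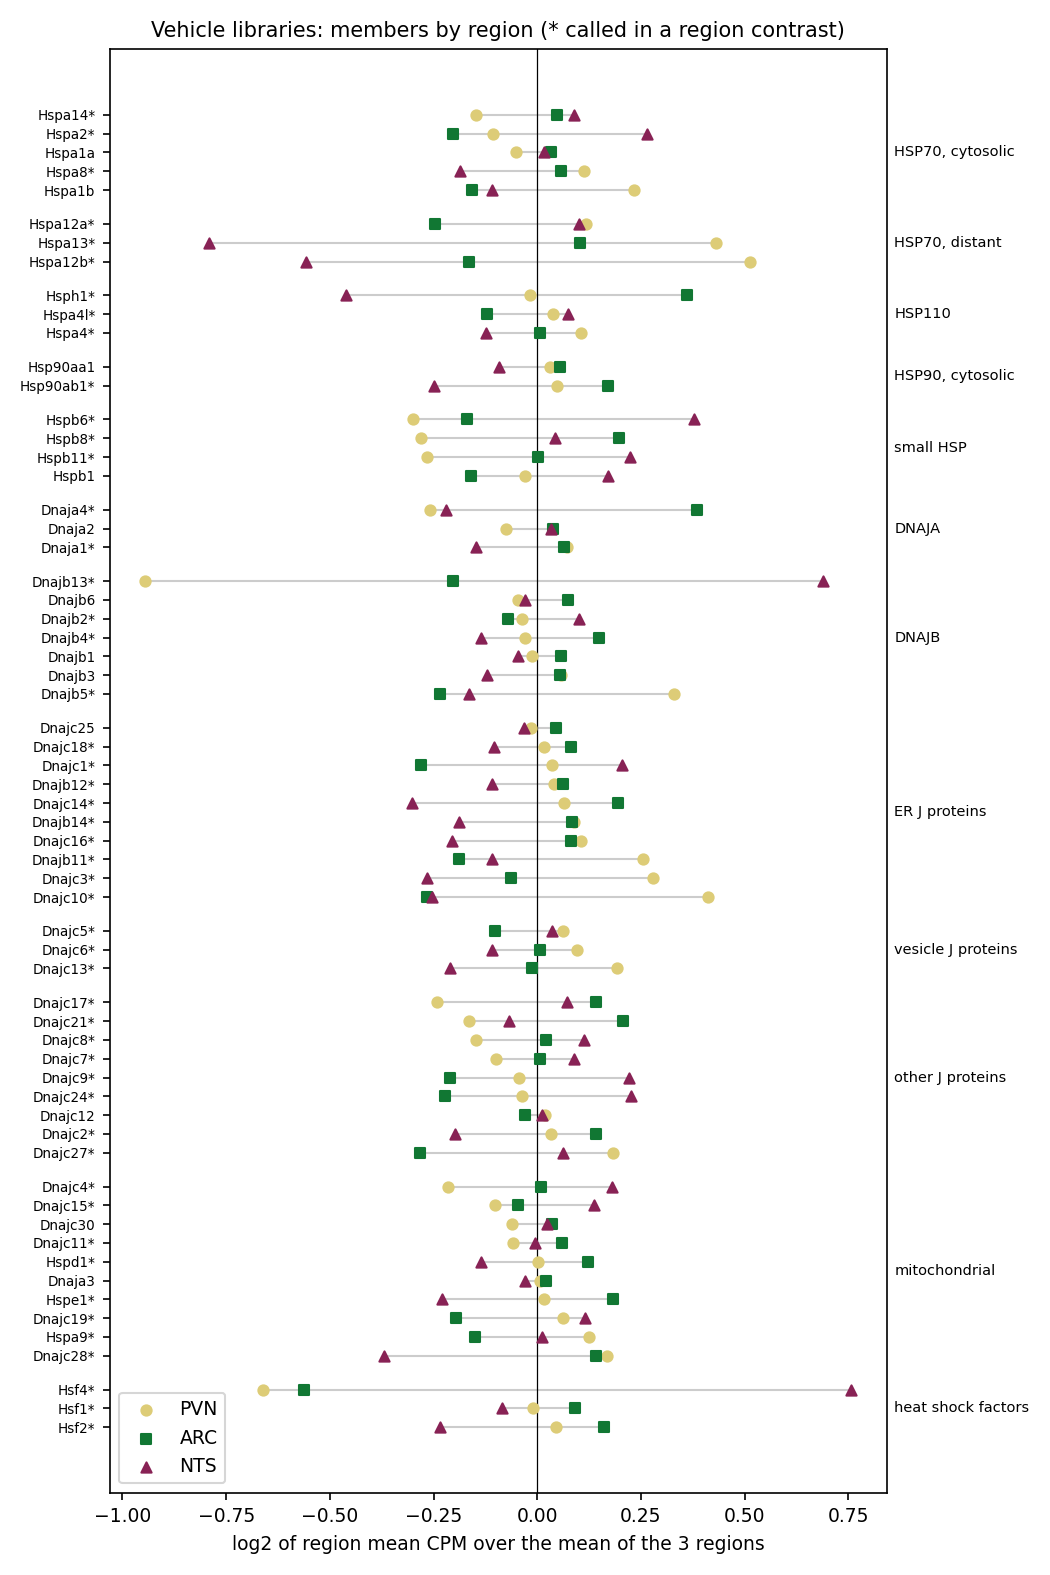
Log2 of the vehicle mean of each region over the mean of the 3 regions (x axis) for each member tested, by role (y axis), with asterisks at members called between any pair of regions; Dnajc22, whose range would exceed the axis, is left out. Hspa13 and Hsf4 span the widest ranges of the members above 5 CPM, at opposite ends of the scale in NTS.

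Dnajc22 had the widest regional difference of any member and was close to absent outside PVN. It encodes a multipass membrane J protein whose fly homolog, wurst, acts in clathrin-mediated endocytosis (GRCm38 chr15:99093170-99104737). In vehicle PVN it ranged from 4.77 to 8.94 CPM with a median of 6.68, 597 counts in all. No count was found in 7 of 9 vehicle ARC libraries and 7 of 10 vehicle NTS libraries, and the totals there were 3 and 8 counts. Every PVN library was thus above every library of the other regions. The ratio of pooled counts per total was 191 (65.0 to 928, 95% interval) for PVN over ARC and 104 (52.3 to 241) for PVN over NTS, intervals that cover counting error only. Treated PVN was at 7.32 ± 1.70 CPM against 6.78 ± 1.40 CPM in vehicle (SD, n = 10 each), a log2 difference of 0.13 ± 0.15 (edgeR adjusted p = 0.866).

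Of the HSP70 proteins that stand apart from the cytosolic series, all 3 were called higher in PVN than in ARC, beside 24.8% of all genes. Against NTS 2 were called higher in PVN, beside 28.3%, and both counts were the same with library totals alone. Hspa13 (Stch), a microsomal HSP70-like ATPase without the substrate-binding domain, ranged in vehicle libraries from 168 to 337 CPM in PVN (median 226), 150 to 205 CPM in ARC (median 182) and 80.8 to 119 CPM in NTS (median 98.4). No NTS library reached the lowest PVN or ARC value. The log2 difference was 1.22 ± 0.08 for PVN over NTS (edgeR adjusted p = 1.00e-21), 0.89 ± 0.08 for ARC over NTS (1.45e-15) and 0.33 ± 0.08 for PVN over ARC (0.000387). Hspa12b, a distant HSP70 of endothelial cells, was at 17.7 ± 3.07, 11.1 ± 2.68 and 8.43 ± 2.00 CPM in PVN, ARC and NTS, and PVN exceeded NTS by 1.04 and ARC by 0.68 log2 units (edgeR adjusted p = 3.07e-11 and 4.20e-06). Endothelial markers were also highest in PVN, but lower in ARC than in NTS, where Hspa12b was lowest. Hspa12a, its closest relative, was lower in ARC (114 ± 17.3 CPM) than in PVN (147 ± 16.4 CPM) and NTS (146 ± 18.9 CPM), by 0.36 and 0.35 log2 units (edgeR adjusted p = 0.000633 and 0.000565).

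Cytosolic HSP70 members split. Hspa8 was higher in PVN (1254 ± 112 CPM) and ARC (1207 ± 81.8 CPM) than in NTS (1021 ± 68.4 CPM), by 0.30 and 0.24 log2 units (edgeR adjusted p = 9.42e-08 and 9.09e-06). Hspa2 and Hspa14, a ribosome-associated HSP70, went the other way between PVN and NTS, at -0.37 and -0.24 (edgeR adjusted p = 0.000998 and 0.00147). Hspa1a and Hspa1b passed no regional test. Of the cytosolic HSP90 genes, Hsp90ab1 was higher in ARC (2328 ± 129 CPM) and PVN (2139 ± 261 CPM) than in NTS (1742 ± 213 CPM), by 0.42 and 0.30 log2 units (edgeR adjusted p = 1.76e-07 and 9.18e-05), whereas Hsp90aa1 passed no regional test. Without PVN vehicle library 10, however, Hsp90aa1 was called lower in PVN than in ARC (-0.14 ± 0.06, edgeR adjusted p = 0.0381), and with library totals alone it was called higher in ARC than in NTS (0.17 ± 0.07, edgeR adjusted p = 0.0286).

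Hsph1 marked ARC. Vehicle libraries ranged from 454 to 723 CPM in ARC (median 527), 359 to 507 CPM in PVN (median 403) and 239 to 435 CPM in NTS (median 292). Every ARC library exceeded every NTS library, and PVN overlapped both. The log2 difference was 0.82 ± 0.09 for ARC over NTS (edgeR adjusted p = 1.83e-12), -0.38 ± 0.09 for PVN over ARC (0.000238) and 0.44 ± 0.09 for PVN over NTS (1.08e-05). The other HSP110 genes, Hspa4 and Hspa4l, differed by at most 0.23 log2 units in any pair. Dnaja4, a cytosolic type I J protein, was also higher in ARC (median 53.9 CPM) than in PVN (median 33.3 CPM) or NTS (median 35.3 CPM), by 0.65 and 0.60 log2 units (edgeR adjusted p = 1.19e-11 and 3.71e-11). Dnaja1 was higher in PVN and ARC than in NTS, by 0.22 and 0.21 (edgeR adjusted p = 0.00266 and 0.00371), and Dnaja2 passed no regional test with all libraries. Without PVN vehicle library 10 Dnaja2 was called lower in PVN than in ARC (-0.18 ± 0.04) and than in NTS (-0.17 ± 0.04; edgeR adjusted p = 0.000439 and 0.000338), and both were also called with library totals alone.

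Heat shock factors were divided by region too. Hsf4, known as the factor of the lens, ranged in vehicle libraries from 29.4 to 40.3 CPM in NTS (median 32.3), 8.39 to 17.8 CPM in PVN (median 12.2) and 10.55 to 19.2 CPM in ARC (median 12.2). NTS did not overlap either hypothalamic region. PVN was below NTS by 1.43 ± 0.11 log2 units and ARC below NTS by 1.32 ± 0.11 (edgeR adjusted p = 8.25e-19 and 3.68e-17), and PVN and ARC differed by -0.11 ± 0.11. Hsf2 ran opposite, higher in PVN (0.28 ± 0.08) and ARC (0.40 ± 0.08) than in NTS (edgeR adjusted p = 0.00143 and 1.24e-05). Hsf1, the main stress factor, was nearly level, with medians of 36.2, 39.5 and 34.5 CPM in PVN, ARC and NTS, and only ARC over NTS was called (0.18 ± 0.07, edgeR adjusted p = 0.0261).

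J proteins of the endoplasmic reticulum, the membrane system in which secreted peptides fold, were tested for all 10 members of the group. Against ARC, 4 were called higher in PVN and 0 lower, beside 24.8% and 21.1% of all genes. Against NTS, 7 were called higher in PVN and 0 lower, beside 28.3% and 27.8%. In ARC against NTS, 6 were higher and 1 lower, beside 30.2% and 31.5%. With library totals alone the first 2 counts became 4 higher and 2 lower, and 6 higher and 1 lower. Dnajc10 (ERdj5), a disulfide reductase that prepares misfolded proteins for removal, ranged in vehicle PVN from 190 to 442 CPM (median 242), the highest being library 10, and from 142 to 181 CPM in ARC and 133 to 185 CPM in NTS. PVN did not overlap the other regions. Its log2 difference was 0.68 ± 0.08 for PVN over ARC and 0.67 ± 0.08 for PVN over NTS (edgeR adjusted p = 8.13e-11 and 3.54e-11). Dnajc3 (P58IPK), a BiP co-chaperone that also restrains the kinase PERK, was at 131 ± 19.5, 104 ± 11.03 and 89.9 ± 7.56 CPM in PVN, ARC and NTS, and PVN exceeded ARC by 0.35 and NTS by 0.55 log2 units (edgeR adjusted p = 1.09e-05 and 5.02e-11). Dnajb11 (ERdj3), which hands unfolded proteins to BiP, exceeded ARC by 0.44 and NTS by 0.36 (edgeR adjusted p = 2.04e-07 and 4.03e-06). Dnajc14 and Dnajc1 followed another order, the first lowest in NTS at 50.2 ± 4.44 CPM and the second lowest in ARC at 13.8 ± 2.16 CPM. Of the 8 ER chaperones left out by the symbol rule, 7 were called higher in PVN than in ARC (24.8% of all genes) and 8 higher than in NTS (28.3% of all genes), Hspa5 (BiP) by 0.52 and 1.17 log2 units.

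Of 7 cytosolic Dnajb members tested, 1 was called higher and 1 lower in PVN than in ARC, 1 and 2 in PVN than in NTS, and 1 and 2 in ARC than in NTS, shares near or below those of all genes (24.8% and 21.1%, 28.3% and 27.8%, 30.2% and 31.5%). Dnajb5 in vehicle libraries was higher in PVN than in ARC by 0.57 ± 0.14 and than in NTS by 0.51 ± 0.14 log2 units (edgeR adjusted p = 0.000852 and 0.0015). Dnajb4, a close relative of it, was highest in ARC at 124 ± 10.9 CPM, against 110 ± 8.52 CPM in PVN and 102 ± 6.97 CPM in NTS. Dnajb2, a neuronal J protein that sorts ubiquitylated clients, was at 138 ± 17.3, 135 ± 11.1 and 152 ± 13.5 CPM and slightly higher in NTS than in the other 2 regions, by 0.14 to 0.17 log2 units. Dnajb2 was no longer called between PVN and NTS without PVN vehicle library 10 (edgeR adjusted p = 0.0986). Dnajb1 and Dnajb6, which suppresses polyglutamine aggregation, passed no regional test, but Dnajb6 was called lower in PVN than in ARC without PVN vehicle library 10 (-0.17 ± 0.07, edgeR adjusted p = 0.0273) and with library totals alone (-0.19 ± 0.07, edgeR adjusted p = 0.0142). Dnajb13, a J protein of sperm flagella and cilia that overlaps Ucp2 on the opposite strand, was low, at 0.586, 0.979 and 1.82 CPM in PVN, ARC and NTS, with PVN below NTS by 1.51 ± 0.39 log2 units (edgeR adjusted p = 0.000633). Summed markers of ciliated ependyma were at 19.1, 26.5 and 30.4 CPM in the same order, 4 of the 6 above 1 CPM on average in each region, and their part in this was not tested.

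Of 4 members with an Hspb symbol tested (Hspb1, Hspb6, Hspb8 and Hspb11), 1 was called lower in PVN than in ARC, beside 21.1% of all genes. Against NTS 3 were called lower in PVN, beside 27.8%, and 0 were called higher against either region, also with library totals alone. Hspb11, placed in this class by its symbol alone, was among those lower in PVN than in NTS. Hspb8, which works with BAG3 in selective autophagy, was at 28.5 ± 3.48, 39.7 ± 2.86 and 35.7 ± 5.29 CPM in PVN, ARC and NTS, and PVN was below ARC by 0.48 ± 0.10 log2 units with no overlap (edgeR adjusted p = 3.72e-05). Hspb6 (HSP20) was higher in NTS (12.9 ± 2.33 CPM) than in PVN (8.07 ± 1.75 CPM) or ARC (8.82 ± 1.79 CPM), by 0.67 and 0.54 log2 units (edgeR adjusted p = 2.02e-06 and 9.94e-05). The remaining members of the class, Hspb2, Hspb3, Hspb7 and Hspb9, stayed under 0.4 CPM on average in every group. Cryab, a small heat shock protein outside the symbol rule that oligodendrocytes and astrocytes also express, was at 17.4 ± 3.76, 17.7 ± 3.69 and 46.7 ± 9.86 CPM in PVN, ARC and NTS.

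Of 10 mitochondrial genes, 1 was called higher and 1 lower in PVN than in ARC, 3 and 2 in PVN than in NTS, and 3 and 2 in ARC than in NTS, shares near or below those of all genes (24.8% and 21.1%, 28.3% and 27.8%, 30.2% and 31.5%). Hspa9 (mortalin) was higher in PVN (355 ± 11.9 CPM) than in ARC (293 ± 18.95 CPM) by 0.28 ± 0.06 with no overlap (edgeR adjusted p = 4.28e-05). Hspe1 and Hspd1 were both higher in ARC than in NTS, by 0.41 ± 0.09 and 0.26 ± 0.06 (edgeR adjusted p = 4.73e-05 and 0.000104). Of the vesicle J proteins, Dnajc13 was ordered PVN, ARC, NTS at 82.4 ± 6.65, 71.5 ± 4.94 and 62.4 ± 5.06 CPM, each step called. Dnajc5 and Dnajc6 differed by at most 0.20 log2 units between any pair. Among the other J proteins, Dnajc27, a small GTPase fused to a J domain, was higher in PVN (206 ± 17.8 CPM) than in ARC (149 ± 10.3 CPM) by 0.46 ± 0.07 with no overlap (edgeR adjusted p = 4.73e-08). Dnajc12, a co-chaperone of the aromatic amino acid hydroxylases that make catecholamines and serotonin, was level at 49.9 ± 11.5, 48.2 ± 5.10 and 49.6 ± 6.62 CPM. Of the 13 CCT and prefoldin subunits tested, which lie outside the symbol rule, 9 were called higher and 0 lower in ARC than in NTS, beside 30.2% and 31.5% of all genes, and 10 higher and 1 lower in PVN than in NTS, beside 28.3% and 27.8%.

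Within regions, libraries rich in 1 stress-inducible member were compared for the others, after removing each group's mean of log2(CPM + 1). Dnajb1 with 7 other inducible or abundant members gave 21 relations, and none passed a permutation test adjusted over them. The strongest was with Hsp90aa1 in ARC (n = 19, r = 0.58, rho = 0.51, adjusted permutation p = 0.397 for r), which fell to r = 0.17 without the 2 libraries farthest from the median. With Hsph1 in place of Dnajb1, a choice made after the values had been seen, 18 relations were computed. Hspa8 followed Hsph1 in ARC (n = 19, r = 0.68, rho = 0.82, adjusted permutation p = 0.00594 and 0.00288) and in NTS (n = 20, r = 0.75, rho = 0.75, adjusted permutation p = 0.00084 and 0.00288). Without the 2 farthest libraries r was 0.70 in both regions, and without the vehicle libraries numbered 5553 to 5557 it was 0.72 in ARC. Hsp90aa1 followed Hsph1 in ARC (r = 0.89, rho = 0.68, adjusted permutation p = 0.00054 and 0.0112, r = 0.67 without the 2 farthest). In NTS its r of 0.72 fell to 0.38 without them, so that relation rested on treated 1 and vehicle 3. In ARC Hspa1a (r = 0.59, rho = 0.65, adjusted permutation p = 0.0299 and 0.0247) and Dnaja1 (r = 0.65, rho = 0.45, adjusted permutation p = 0.016 and 0.119) fell to r = 0.27 and 0.16 without them. Hspa1b followed Hsph1 in NTS (r = 0.82, rho = 0.61, adjusted permutation p = 0.00054 and 0.0295, r = 0.60 without the 2 farthest).

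In PVN no relation with Hsph1 passed (lowest adjusted permutation p = 0.0969). Hsp90aa1 there had r = 0.20, and 0.68 without the 3 PVN vehicle libraries numbered 5553 to 5555, of which library 10 had 1322 CPM of Hsp90aa1 against at most 857 CPM in the others of its group. The library labelled treated 1 was the highest treated library for Hsph1 in every region, at 535, 701 and 375 CPM in PVN, ARC and NTS.

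**Figure D4:**
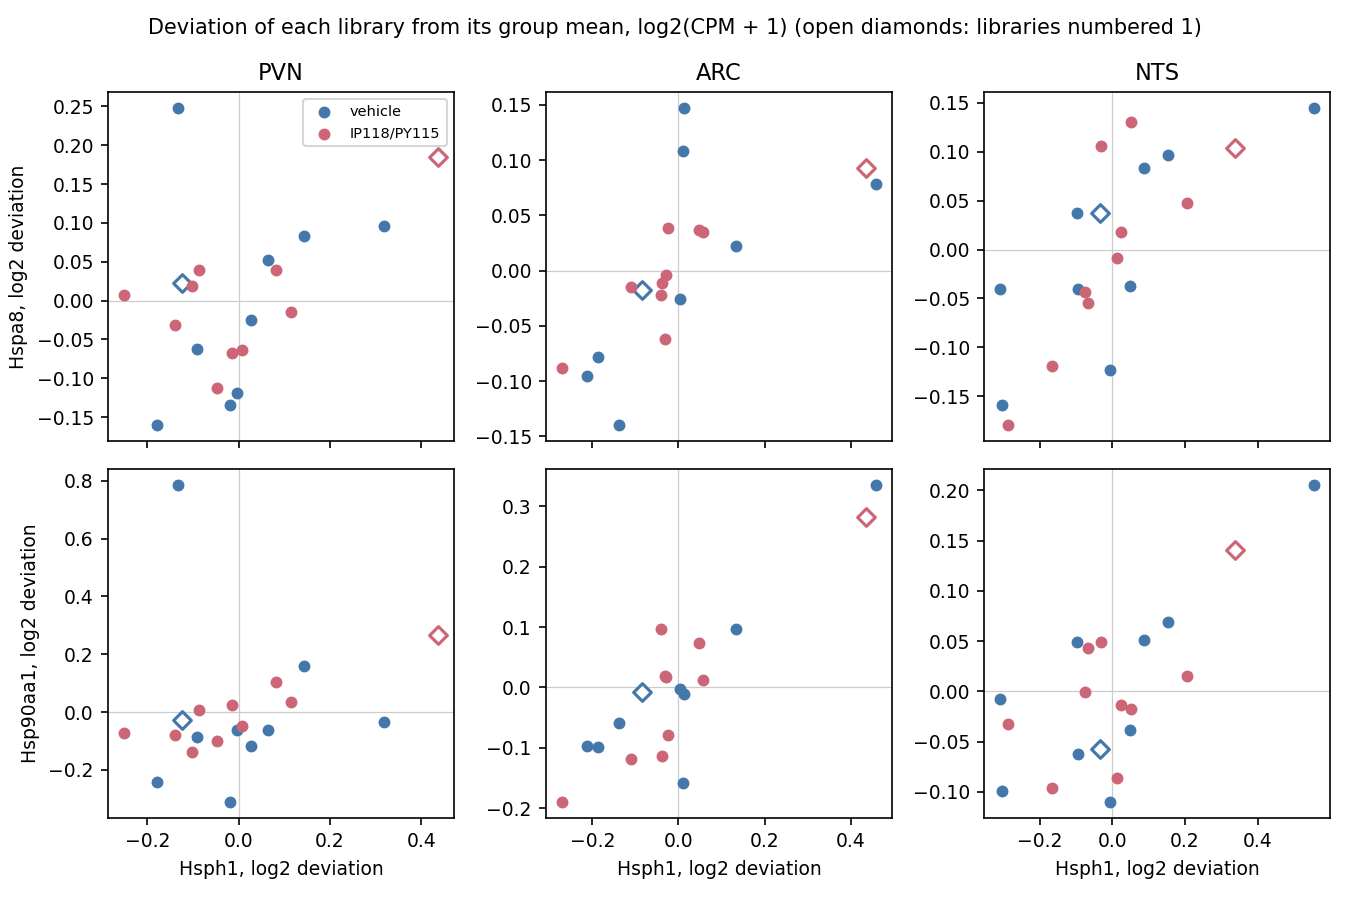
Deviation of Hspa8 (upper row) and Hsp90aa1 (lower row) from their group means against that of Hsph1 (x axis), in log2(CPM + 1), 1 point per library, with the libraries numbered 1 as open diamonds. In ARC and NTS Hspa8 rises with Hsph1 (r = 0.68 and 0.75), and in PVN vehicle library 10 lies far above the others for Hsp90aa1.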

How the data were processed

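Read counts per Ensembl gene were used as deposited by the authors, for 59 libraries of poly(A) RNA from a stranded mRNA kit, per the labels' protocols. The submitters' processing notes name bcl2fastq 2.20.0.422, STAR 2.5.2a and GRCm38, and the read counter, strand setting and annotation release are not given in the sources used here, so reads of overlapping genes (Dnajb3 within the Ugt1a locus, Hspb2 beside Cryab) may be shared. Symbols came from GENCODE M21, which matched 21858 of 21935 identifiers and left 77 unmatched. Library columns were tied to samples by the number in each title, and replicate numbers follow accession order, so they pair nothing.

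Genes were kept by edgeR's filterByExpr (minimum count 10, minimum total 15), scaled by TMM and tested with edgeR 4.0.16 quasi-likelihood fits (R 4.3.3), per region for treatment and over all 6 groups for vehicle contrasts and differences of effects, with Benjamini-Hochberg adjustment over all genes at 0.05. CPM values use TMM factors over all 59 libraries, and values per kilobase divide by the exon length. Totals of 3964093 to 28510118 counts set the precision, and counting error weighs most for members of a few CPM. Permutation tests used 100000 resamples (exact for the ARC totals) with a pseudocount of 1. The treatment fits were tested on simulated counts. Of 50 genes changed 1.25-fold, 25, 21 and 18 were recovered in PVN, ARC and NTS. Of 50 changed 2-fold, 48, 48 and 46 were recovered, and the simulations gave 7, 3 and 9 false calls. Alternatives were DESeq2 1.42.0, other scalings, no filter, a threshold of 0.1, library total as a covariate, 1 joint fit, each library left out, and 3 added later: without the libraries numbered 1, Hsph1 in place of Dnajb1, and a block by position in each region's run of library numbers. The named set held members called, else the 8 of smallest p per treatment comparison and 3 per difference of effects. It also held the 5 widest called differences each way per region pair, up to 3 genes of each other list, and a fixed core. Not all values of this set are printed. Some other members are named within their role group. The members and lists were chosen with earlier results of these data known.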

Additional observations from a re-analysis of the deposited data

Results flagged for a closer look

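In each group of 9 or 10 libraries the highest and the lowest value of log2(CPM + 1) was compared with its nearest neighbour, for 49 named members in 6 groups, 294 groups of values in all. In 34 of them the gap was above the 95% critical value of Dixon's test, and chance flags about 1 in 20. PVN vehicle library 10 gave 12 of the 34. It was the highest of its group for Dnaja1 (380.2 CPM), Dnajb6 (43.09 CPM), Dnajc10 (441.5 CPM), Dnajc12 (80.78 CPM), Hsf2 (76.23 CPM), Hsp90aa1 (1322 CPM), Hspb11 (18.35 CPM) and Hspe1 (111.1 CPM). It was the lowest for Dnajc14 (51.91 CPM), Dnajc5 (379.5 CPM), Hsp90ab1 (1465 CPM) and Hspa1a (3.413 CPM). Its total was 7640639 counts.

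In vehicle PVN, library 8 was the highest for Dnaja4 (45.67 CPM) and Dnajb1 (94.89 CPM). In treated PVN, library 1 was the highest for Hsph1 (535.4 CPM) and Hspa8 (1388 CPM) and the lowest for Dnajb6 (27.54 CPM). Treated PVN library 9 stood apart for Dnajc17 (12.85 CPM), Hsf2 (38.56 CPM) and Hspa13 (186.5 CPM).

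In ARC, treated library 1 was the highest for Hsph1 (701.4 CPM) and treated library 4 the lowest for Dnajc25 (3.338 CPM). In ARC vehicle libraries the values apart were 29.1 CPM for Dnajc21 (library 4), 0.4303 CPM for Dnajc22 (library 5), 7.996 CPM for Dnajc25 and 14.29 CPM for Hspa2 (both library 3), and 248.1 CPM for Hspa9 (library 9).

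In NTS, treated library 1 was the lowest for Dnajb5 (49.12 CPM) and treated library 8 the lowest for Dnajc27 (134.7 CPM). In NTS vehicle libraries the values apart were 0.3343 CPM for Dnajc22 (library 4), 235.1 CPM for Hspa9 and 135.3 CPM for Hspd1 (both library 7), and 40.26 CPM for Hsf4 and 15.66 CPM for Hspb11 (both library 8).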

How the results depend on the processing

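Counts of members called with treatment differed from 0 under few alternatives, and the member called was Dnajb5 each time. DESeq2 called 1 in NTS, the fit of all 6 groups called 1 in PVN, and the fit without the libraries numbered 1, added later, called 1 in PVN and 1 in NTS. Over all genes these fits called, in the same order, 63 of 13696, 152 of 14379, 429 of 13342 and 162 of 13744. With 1 library left out the count ran from 0 to 1 in PVN, 0 to 0 in ARC and 0 to 1 in NTS, and the calls came from leaving out the library labelled vehicle 1 or treated 1. Regional counts ran from 22 to 29 (PVN and ARC), 35 to 39 (PVN and NTS) and 32 to 37 (ARC and NTS), and counts for differences of effects from 0 to 0. Shares of all genes are not printed for the fits with 1 library left out. At an adjusted threshold of 0.1 the regional counts were 29, 42 and 42, beside 7521, 8917 and 9669 of 14379 genes. Single values were recomputed for the members named for each comparison, for the fixed core with treatment, and for the correlations with Dnajb1. Of these, 3747 kept their side of the threshold or lay within the spread, 16 moved and 8 crossed into a call (all for Dnajb5). No called value among them changed direction. Members not named for a region pair were outside this tally, and some of their calls changed. Without PVN vehicle library 10 or with library totals alone, Dnaja2, Dnajb6 and Hsp90aa1 gained calls, and Dnajb2 and Dnajc9 lost one, among others. The cause of these moves was not tested. The labels tie no library to an animal, but at all 15, 17 and 17 positions that the runs of library numbers of PVN and ARC, PVN and NTS, and ARC and NTS share, the treatments matched. Deviations from the group mean at a shared position correlated with medians of 0.01, 0.02 and 0.06 over 14379 genes, above 0.1 at 3, 2 and 3 positions, and were the best match for 5, 4 and 6 libraries. These correlations are between different regions, so low values cannot exclude that libraries at a shared position came from 1 animal. Position was not taken as pairing in the main fits, and whether it is one was left undecided. With it as a replicate block, added later, over the 54 libraries in the runs, 28, 39 and 36 members were called between regions, of which 21, 33 and 31 were called in the main comparison (24, 38 and 36). The same libraries without the block gave 26, 40 and 36. Of all 14487 genes, 5734, 7660 and 8657 were called with the block and 6334, 7972 and 9017 without it. No member was called for a difference of effects either way. Intervals of Hspb1 and Hspa1b reached past 0.5 log2 units in all 3 regions, so they do not exclude treatment differences of that size in these 2 genes.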
